A study of Mus musculus with 9 samples.

Results

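The microRNAs miR-221 and miR-222 were followed in extracellular vesicles released by cultured mouse podocytes, epithelial cells of the glomerulus, the filter of the kidney. They were taken by name as 4 of the 1915 mouse miRNA identifiers in the tables, mmu-miR-221-3p, mmu-miR-221-5p, mmu-miR-222-3p and mmu-miR-222-5p, named below without the species prefix, and all 4 were counted in all 9 libraries. The libraries fell into 3 groups of 3. The high glucose group had 30 mM glucose, the mannitol group, the osmolality control, had 24.7 mM of this sugar alcohol beside 5.3 mM glucose, and the normal glucose group had 5.3 mM glucose. In all groups the source was a conditionally immortalized podocyte line, grown at 33 °C with interferon-γ and then differentiated for 10 days at 37 °C without it in medium with 5% fetal bovine serum, before 48 h in the test medium. Vesicles were precipitated from the supernatant with a polymer reagent, which can bring down other RNA carriers too, and whether the serum had been freed of its own vesicles is not stated in the labels. A vesicle library mixes the output of many cells. Levels below are shares of the miRNA counts of each library. They measure neither the number of vesicles nor the amount of a miRNA per vesicle.

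A miRNA hairpin is cut into a duplex, and usually one arm, the guide, is loaded into Argonaute while the other, the passenger, is degraded. The guide finds its messenger RNA targets mainly through its seed, bases 2 to 8. The 3p arms are the guides of miR-221 and miR-222, and in human cancer cells they repress the cyclin-dependent kinase inhibitors p27 (CDKN1B) and p57 (CDKN1C), which hold cells in G1, and the receptor KIT in human endothelial and blood progenitor cells. Mature podocytes have left the cell cycle and carry p27 and p57.

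Sequences are from RefSeq on build GRCm38.p6, in which 3 of the 4 arms had a mature entry. The 3p arms are shown because they have a common seed, and the seed of each sequence is in capitals.
miR-221-3p: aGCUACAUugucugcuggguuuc
miR-222-3p: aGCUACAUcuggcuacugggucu
miR-221-5p: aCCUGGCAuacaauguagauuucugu
miR-1928: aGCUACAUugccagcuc
The 3p arms of miR-221 and miR-222 were each 23 bases long, began with the same 8 bases, and were identical at 11 positions when set side by side without gaps. Of 1623 identifiers with a mature sequence in RefSeq, 3 had this seed. The third was miR-1928, which was listed above 0 in 1 of 9 libraries, at 10 counts. Among identifiers with a sequence, reads with the seed thus came almost wholly from miR-221-3p and miR-222-3p. The seeds of the other identifiers are not known here. Summed over identifiers with a sequence and a common seed, this seed stood at place 17 of 336 seeds with any counts. Its mean was 8431 CPM (counts scaled to 1000000 miRNA counts in each library). The seed of miR-221-5p was found in no other identifier with a sequence, and miR-222-5p is named without one.

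Both hairpins lie on the minus strand of chromosome X, Mir221 at 19146294 to 19146388 and Mir222 at 19146893 to 19146971, with 504 bases between them. The hairpins are shown because the arm ratios reported here compare their parts, and the mature arms with an entry are in capitals.
Mir221: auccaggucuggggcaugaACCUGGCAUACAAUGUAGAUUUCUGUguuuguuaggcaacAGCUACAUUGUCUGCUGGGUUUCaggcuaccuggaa
Mir222: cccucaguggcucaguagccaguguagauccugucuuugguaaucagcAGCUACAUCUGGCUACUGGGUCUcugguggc
In GENCODE M21 no other gene overlapped the interval of both hairpins. The nearest gene was Gm14636, a processed transcript on the same strand that lies 10010 bases to the side of higher coordinates.

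Total miRNA counts ran from 725211 to 2553690 in high glucose, from 1329426 to 2269776 with mannitol and from 1087144 to 1539514 in normal glucose. Counts of 1 to 9 did not occur, so a listed 0 stands for at most 9 reads, a limit that none of the 4 arms reached. All 5 members of the miR-30 list, abundant in podocytes, were present, at a summed 149949 to 224982 CPM in high glucose, 106713 to 177083 CPM under mannitol and 126420 to 140209 CPM at normal glucose. No miRNA is made by podocytes alone, so this does not show that they are the only source. The labels do not state separate cultures for the replicates, and p-values then rest on the spread of these libraries alone, which may be technical.

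The main product of the pair was miR-221-3p. Its level was 6077, 7484 and 9723 CPM in the high glucose libraries, in order of replicate number, 6478, 8180 and 7779 CPM in the mannitol libraries, and 7544, 6162 and 9276 CPM in the normal glucose libraries. The 3 groups overlapped, with the lowest and the highest library both in high glucose. Means were 7761 ± 1839 CPM in high glucose, 7479 ± 890 CPM under mannitol and 7661 ± 1560 CPM at normal glucose (SD, n = 3 each). By its mean over all libraries, 7634 CPM, miR-221-3p was at place 30 of all miRNAs, between miR-320-3p at 7868 CPM and miR-152-3p at 7587 CPM, and its place ran from 20 to 37 among single libraries. Next to these stood let-7g-5p at 7910 CPM and miR-140-3p at 7192 CPM. Levels of different miRNAs are ratios of sequenced reads and not of molecules.

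The other guide, miR-222-3p, was a rarer product. Its level was 812, 685 and 778 CPM in high glucose, 1047, 752 and 708 CPM under mannitol, and 735, 922 and 734 CPM at normal glucose. Mannitol replicate 1 was the highest library and the groups overlapped. Means were 758 ± 65.6 CPM in high glucose, 836 ± 184 CPM under mannitol and 797 ± 108 CPM at normal glucose (SD, n = 3 each). Over all libraries its mean was 797 CPM, place 83, with miR-30c-5p at 838 CPM and miR-181d-5p at 821 CPM above it and miR-127-3p at 742 CPM and miR-224-5p at 671 CPM below. The SD of its log2 CPM after TMM scaling over the 9 libraries, 0.20, was at place 7 from the smallest among the 260 miRNAs listed in all libraries, whose median SD was 0.44. For miR-221-3p the SD was 0.30, at place 50.

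The passenger arms were far rarer. The 5p arm of miR-222 stood at 117, 115 and 127 CPM in high glucose, 100.04, 105 and 153 CPM under mannitol, and 140, 114 and 131 CPM at normal glucose. Mannitol libraries held both the lowest and the highest value, and the other groups lay between them. The means were 120 ± 6.49 CPM in high glucose, 119 ± 29.2 CPM under mannitol and 128 ± 13.0 CPM at normal glucose (SD, n = 3 each).

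The 5p arm of miR-221 was the rarest and the most variable of the 4. It had 31.7, 22.7 and 49.3 CPM in high glucose, 16.5, 18.3 and 20.7 CPM under mannitol, and 27.9, 26.7 and 58.7 CPM at normal glucose. All 3 mannitol libraries lay below every high glucose and every normal glucose library, and the high and normal glucose groups overlapped. Of the 361 tested miRNAs, 2.49% had all high glucose above all mannitol libraries, and 7.76% the opposite order. For 1.11% all mannitol libraries were below all normal glucose libraries, and for 2.22% above them. The share with mannitol below both groups at once was not counted. The means were 34.6 ± 13.5 CPM in high glucose, 18.5 ± 2.09 CPM under mannitol and 37.8 ± 18.1 CPM at normal glucose (SD, n = 3 each). These levels rest on 22 to 65 counts per library, except for a deeper count in high glucose replicate 3. By counting error alone the 95% exact Poisson interval was 15.2 to 32.6 CPM for high glucose replicate 2, the lowest of its group, and 15.2 to 27.5 CPM for mannitol replicate 3, the highest of its group, so that these neighbouring libraries did not differ beyond counting error. The interval of normal glucose replicate 2, the lowest of its group, was 17.9 to 38.3 CPM and also overlapped that of mannitol replicate 3. PCR reads without molecular identifiers are not independent molecules, and such intervals cover counting error only. The SD of log2 CPM over the 9 libraries was 0.62, the highest of the 4 arms, where counting error at the median count gives 0.27.

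**Figure D1:**
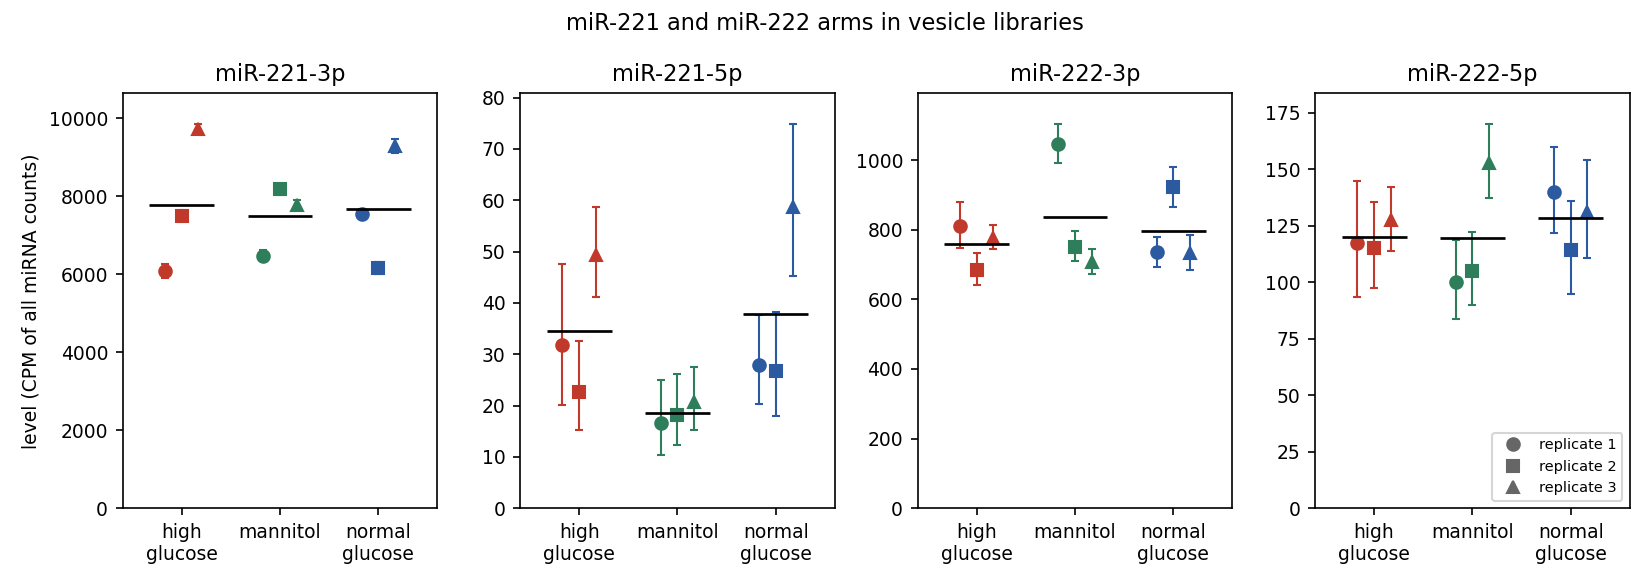
Level of each arm in CPM of all miRNA counts, by group; points are libraries (marker shape gives the replicate number), bars on points the 95% exact Poisson interval, and horizontal lines the mean of 3 libraries. The miR-221-5p values with mannitol, 16.5 to 20.7 CPM, lie below all other libraries, while the groups overlap for the other 3 arms.

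Together the 4 arms made up 0.704%, 0.831% and 1.07% of miRNA counts in high glucose, 0.764%, 0.906% and 0.866% with mannitol, and 0.845%, 0.722% and 1.02% in normal glucose. Their summed level was 8674 ± 1847 CPM in high glucose, 8452 ± 729 CPM under mannitol and 8624 ± 1496 CPM at normal glucose (SD, n = 3 each). The ratio of means was 1.01 for high glucose over normal glucose, 1.03 for high glucose over mannitol and 0.980 for mannitol over normal glucose, with an exact two-sided permutation p of 1 in each case. With 3 libraries against 3 this test cannot go below 0.1. Of the sum, miR-221-3p took 84.8% to 91.1% in single libraries, so the sum describes that arm above all.

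The set of high against normal glucose asks whether the whole treatment changes the arms released by podocytes. None of the 4 arms passed. The log2 fold changes from a joint edgeR quasi-likelihood fit were 0.14 (SE 0.28, 95% interval -0.46 to 0.75) for miR-221-3p and -0.004 (SE 0.28, interval -0.60 to 0.60) for miR-222-3p. For the passenger arms they were 0.01 (SE 0.47, interval -1.0002 to 1.016) for miR-221-5p and 0.005 (SE 0.31, interval -0.66 to 0.67) for miR-222-5p. The Benjamini-Hochberg adjusted p by edgeR was 0.995 for each, over 361 tested miRNAs. The upper ends of the intervals of the guides were 0.75 and 0.60, and changes inside the intervals remain compatible with these libraries. These ends are not limits of detection. Over all tested miRNAs the percentage called was 0 in this comparison, and 10 miRNAs, 2.77%, had an unadjusted p under 0.05, none of them among the 4 arms. In CPM the groups overlapped for each arm, while all high glucose libraries were above all normal glucose libraries for 2.49% of tested miRNAs and below them for 6.93%. By DESeq2 the number called was 0 with 15 at that unadjusted p, and by limma-voom 0 with 5.

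Setting high glucose against mannitol asks for a difference at matched osmolality. For miR-221-5p the log2 fold change was 1.05 (SE 0.48, 95% interval 0.02 to 2.07), with an unadjusted p of 0.0461, and it did not pass (adjusted p = 0.704 by edgeR over all tested miRNAs). All 3 high glucose libraries were above all 3 mannitol libraries in CPM, which held in that direction for 2.49% of the 361 tested miRNAs (7.76% in the other direction). The value was 0.68 without high glucose replicate 3 and at most 1.31, without high glucose replicate 2. For the other arms it was 0.21 (SE 0.28, interval -0.40 to 0.81) for miR-221-3p, 0.02 (SE 0.28, interval -0.58 to 0.62) for miR-222-3p and 0.15 (SE 0.31, interval -0.51 to 0.81) for miR-222-5p, with adjusted p of 0.943 to 0.994 in edgeR. The percentage of miRNAs called by edgeR was 0, with 19 miRNAs, 5.26%, at an unadjusted p under 0.05, miR-221-5p among them. DESeq2 called 1 miRNA, miR-182-5p, which is named here after its value was seen (log2 fold change 0.60, adjusted p = 0.0120), with 26 at an unadjusted p under 0.05, while limma-voom called 0, with 29 at that p. No arm of miR-221 or miR-222 was called by either tool.

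The comparison of mannitol with normal glucose measures added osmolality without added glucose. Here miR-221-5p stood at -1.04 in log2 fold change (SE 0.48, with a 95% interval of -2.06 to -0.01) and an unadjusted p of 0.0477, and did not pass (adjusted p = 0.9996 by edgeR over all tested miRNAs). All mannitol libraries were below all normal glucose libraries, which held in that direction for 1.11% of the 361 tested miRNAs (2.22% in the other direction). The value was -0.68 without normal glucose replicate 3, the library with the highest level, and -1.22 without normal glucose replicate 1. The same mannitol libraries enter both comparisons of miR-221-5p, which are therefore not separate results. For the other arms it was -0.06 (SE 0.28, interval -0.67 to 0.54) for miR-221-3p, -0.03 (SE 0.28, interval -0.63 to 0.57) for miR-222-3p and -0.15 (SE 0.31, interval -0.81 to 0.51) for miR-222-5p. Again the percentage called was 0, with 5 miRNAs, 1.39%, at an unadjusted p under 0.05, while DESeq2 had 0 calls with 7 at that p, and limma-voom 0 with 3.

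**Figure D2:**
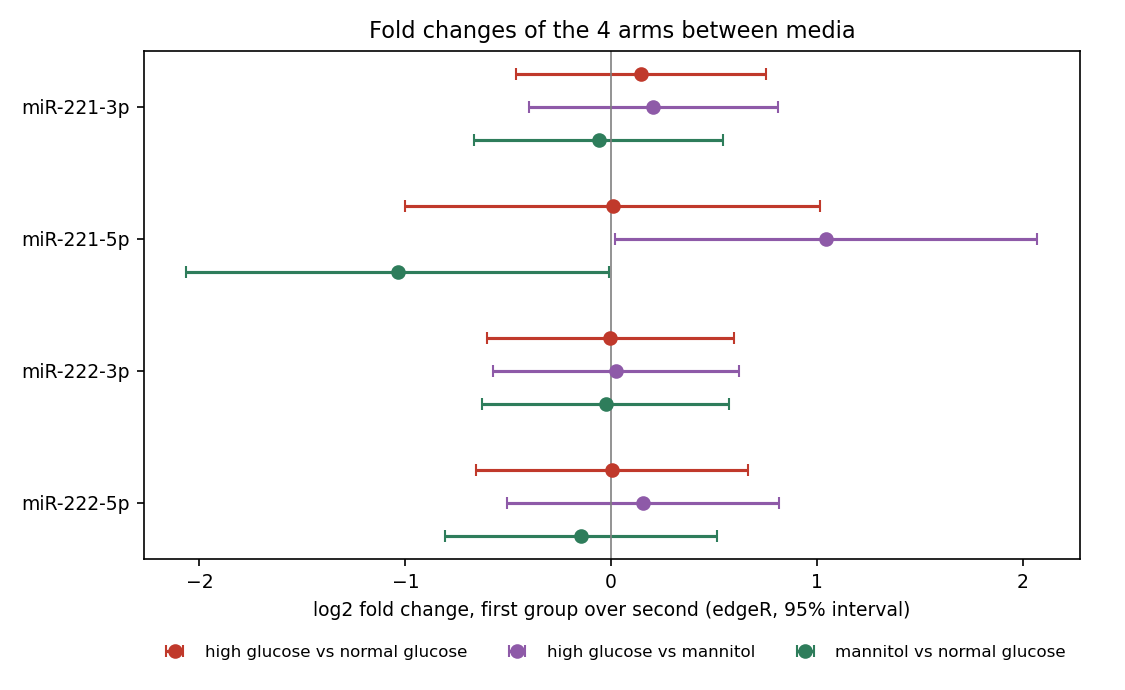
Log2 fold change of each arm in the 3 comparisons, first group over second, from the joint edgeR fit; points are estimates and bars 95% intervals. The miR-221-5p intervals of the comparisons with mannitol, 0.02 to 2.07 and -2.06 to -0.01, leave out 0 before adjustment, while those of the guides are centred near 0.

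The arms were next set against each other within each library, where no scaling between libraries is needed. From the miR-221 hairpin the 5p arm took 0.519%, 0.303% and 0.505% of the reads of both arms in high glucose, 0.255%, 0.223% and 0.265% with mannitol, and 0.369%, 0.431% and 0.629% in normal glucose. The share was lower in each mannitol library than in any other library, while the other groups overlapped. The 95% Wilson interval of high glucose replicate 2, 0.211% to 0.434%, overlapped those of all mannitol libraries, of which that of mannitol replicate 3 was 0.200% to 0.353%. The intervals of normal glucose replicate 1, 0.274% to 0.496%, and replicate 2, 0.300% to 0.618%, also overlapped those of all mannitol libraries. The mean share was 0.442% ± 0.121 in high glucose, 0.248% ± 0.0223 with mannitol and 0.476% ± 0.136 in normal glucose (SD, n = 3 each).

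As a log2 ratio of 5p to 3p counts, miR-221 stood at -7.86 ± 0.44 in high glucose, -8.66 ± 0.13 with mannitol and -7.74 ± 0.40 in normal glucose (SD, n = 3 each). The difference was 0.80 for high glucose minus mannitol and -0.91 for mannitol minus normal glucose, each with an exact two-sided permutation p of 0.1, the smallest that 3 against 3 allows. It was -0.11 for high glucose minus normal glucose (exact p = 0.7). Over 15 exact tests of this kind the Benjamini-Hochberg adjusted exact p was 0.375 for both comparisons with mannitol. Among 41 hairpins with both arms listed in all libraries, the ratio was higher in all high glucose than in all mannitol libraries for 9.76%, and lower in all mannitol than in all normal glucose libraries also for 9.76%. The opposite order held for 4.88% in the first case and 0% in the second, and high glucose lay wholly above normal glucose for 4.88% and wholly below for 4.88%. Mannitol lay below both other groups for 4.88% of them, which are miR-221 and miR-425, the second named after its values were seen. With so few hairpins these shares are coarse, and the pattern was not particular to miR-221.

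The miR-222 hairpin gave its 5p arm a much larger share. It was 12.6%, 14.4% and 14.1% in high glucose, 8.72%, 12.3% and 17.8% with mannitol, and 15.96%, 11.01% and 15.1% in normal glucose. The mannitol libraries spanned the whole range of the other groups, and the 95% Wilson intervals of mannitol replicate 1, 7.41% to 10.2%, and mannitol replicate 3, 16.1% to 19.5%, did not meet, so replicates differed by more than counting error. The log2 ratio of 5p to 3p was -2.66 ± 0.12 in high glucose, -2.81 ± 0.59 with mannitol and -2.63 ± 0.33 in normal glucose (SD, n = 3 each), and the exact permutation p was 0.7 to 1 over the 3 comparisons. The groups thus overlapped for miR-222, and whether the 2 hairpins differed in their response was not tested.

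**Figure D3:**
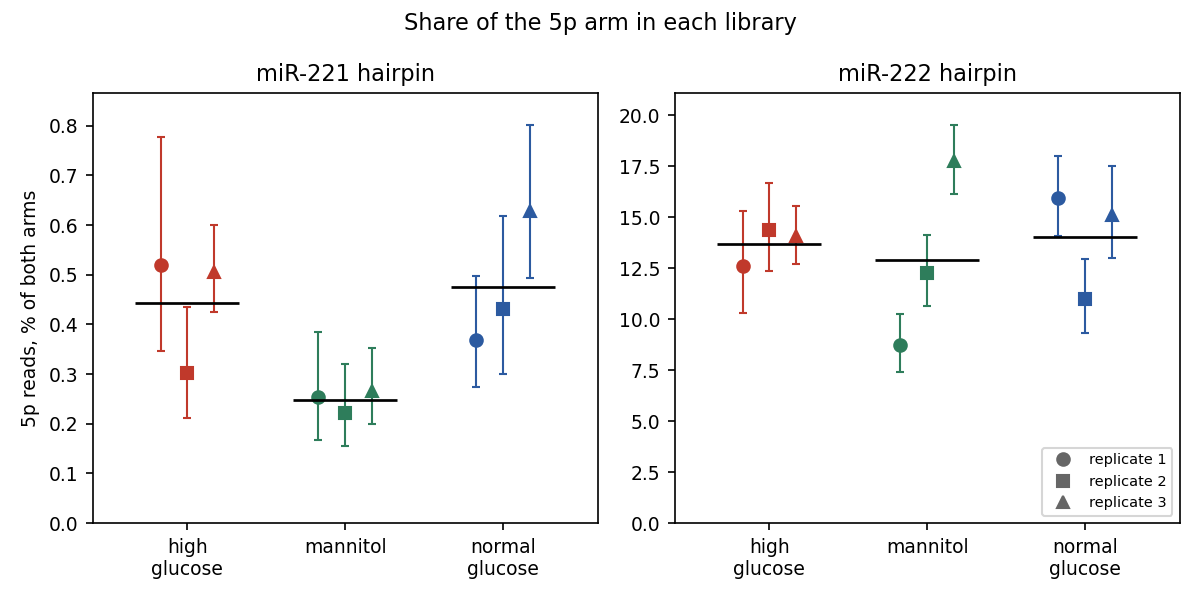
Reads of the 5p arm as a percentage of both arms of a hairpin, by group; points are libraries (marker shape gives the replicate number), bars on points the 95% Wilson interval, and horizontal lines the mean of 3 libraries. For miR-221 the mannitol libraries, at 0.223% to 0.265%, lie below all others, and for miR-222 they span 8.72% to 17.8%.

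The order of the hairpins was the other way round for the passengers. While miR-221-3p outnumbered miR-222-3p in every library, miR-222-5p outnumbered miR-221-5p in every library, by 3.70, 5.07 and 2.58 times in high glucose, 6.05, 5.76 and 7.38 times with mannitol, and 5.00, 4.28 and 2.23 times in normal glucose. The ratio was again highest in the 3 mannitol libraries. The log2 ratio of miR-221-5p to miR-222-5p, a measure added after the data were seen, differed by 0.80 for high glucose minus mannitol and -0.81 for mannitol minus normal glucose (exact permutation p = 0.1 each, adjusted 0.375). These share the miR-221-5p counts with the results above and add no separate support. Over all hairpins compared, miR-221 was among the more one-sided, with the minor arm at 0.395% of its reads, place 6 from the smallest of 41, and miR-222 was at 13.3%, place 23. The median minor arm held 9.15%, and 23 of the 41 hairpins had more 3p than 5p reads.

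**Figure D4:**
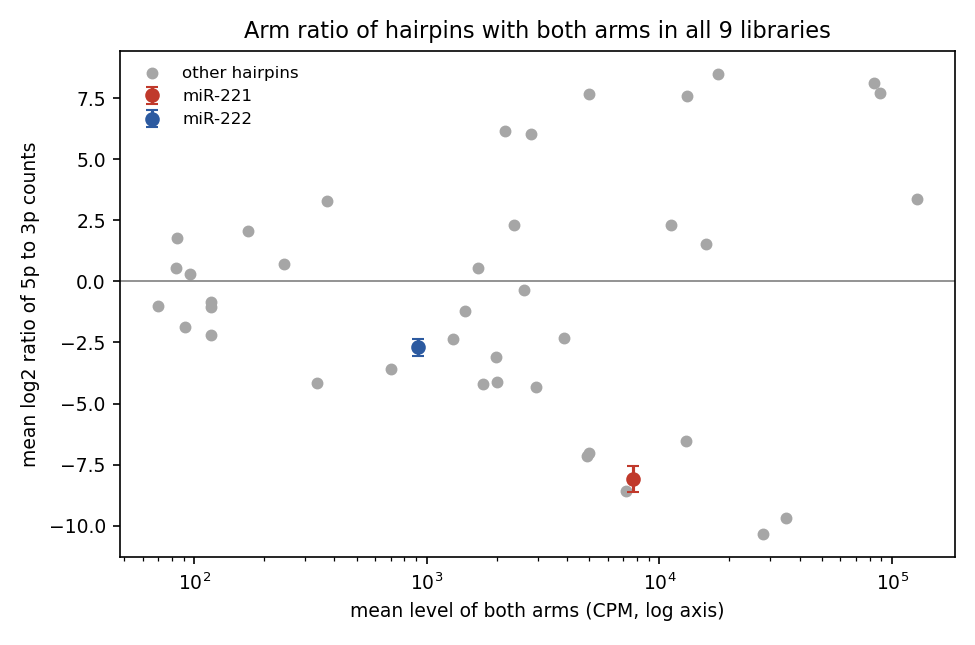
Mean log2 ratio of 5p to 3p counts against the mean level of both arms (log axis, CPM) for the 41 hairpins with both arms in all 9 libraries; bars on the miR-221 and miR-222 points are the SD over 9 libraries. The miR-221 point lies near -8.09 and the miR-222 point near -2.70, both on the 3p side.

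Since the hairpins lie 504 bases apart on one strand, the ratio of their guides was followed as well. Counts of miR-221-3p were 7.48, 10.9 and 12.5 times those of miR-222-3p in high glucose, 6.19, 10.9 and 10.99 times with mannitol, and 10.3, 6.69 and 12.6 times in normal glucose. Each group had 1 library with a ratio of 6.19 to 7.48 and others at 10.3 to 12.6, and the groups overlapped. As log2 ratios the means were 3.33 ± 0.38 in high glucose, 3.18 ± 0.47 with mannitol and 3.25 ± 0.47 in normal glucose (SD, n = 3 each). The difference was 0.08 for high glucose minus normal glucose (exact permutation p = 0.8), 0.16 for high glucose minus mannitol (exact p = 0.6) and -0.08 for mannitol minus normal glucose (exact p = 0.7).

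The guides did not follow each other across libraries. Pearson's r of log2 CPM between miR-221-3p and miR-222-3p was -0.17 over the 9 libraries (Spearman's rho -0.13), a description of points that share depth and scaling. A low r was not particular to the pair, but more of the other clustered pairs had a high r. In these other pairs r ran from -0.29 for miR-191-5p with miR-425-5p to 0.95 for miR-17-5p with miR-20a-5p. It was -0.03 for miR-25-3p with miR-93-5p and 0.02 for miR-23b-3p with miR-27b-3p. It was 0.75 for miR-106b-5p with miR-93-5p, 0.81 for miR-99b-5p with miR-125a-5p, 0.83 for miR-192-5p with miR-194-5p and 0.89 for miR-183-5p with miR-182-5p. The SD of the log2 count ratio of miR-221-3p to miR-222-3p was 0.39, at place 6 of 9 pairs of clustered miRNAs listed in all libraries. It was smallest for miR-183-5p with miR-182-5p, at 0.14, and largest for miR-191-5p with miR-425-5p, at 0.44, and the median over all 33670 pairs of the 260 miRNAs was 0.63. The passenger miR-222-5p had an r of 0.62 with miR-221-3p and -0.24 with its own guide miR-222-3p.

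**Figure D5:**
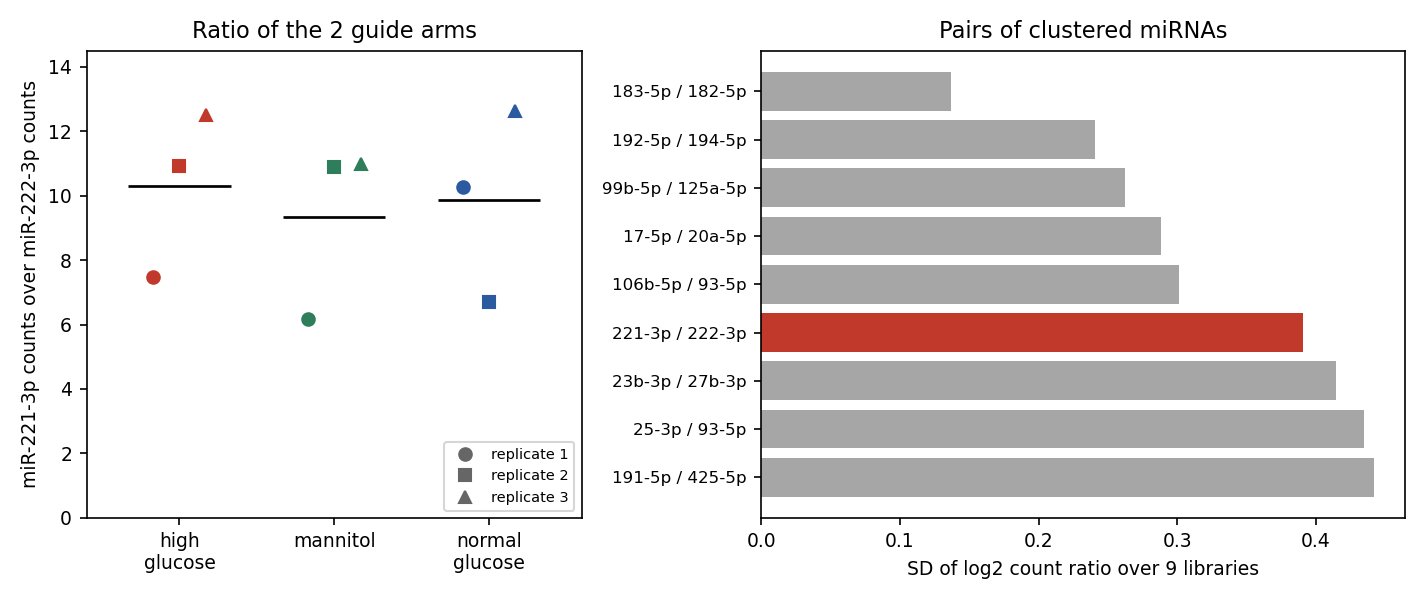
Left, miR-221-3p counts divided by miR-222-3p counts in each library, by group, with the mean of 3 libraries as a line; right, SD over 9 libraries of the log2 count ratio for pairs of miRNAs from common clusters. Ratios run from 7.48 to 12.5 in high glucose, 6.19 to 10.99 with mannitol and 6.69 to 12.6 in normal glucose, and the miR-221-3p and miR-222-3p pair has an SD of 0.39 where pairs range from 0.14 to 0.44.

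Among the 259 other miRNAs listed in all libraries, the levels most like that of miR-221-3p over the 9 libraries were those of miR-199a-3p and miR-199b-3p, whose counts are identical (Pearson's r 0.92). Next came miR-196b-5p (r 0.92), miR-362-3p (r 0.91) and miR-125b-2-3p (r 0.87). In this order miR-222-5p was at place 54, miR-221-5p at place 61 and miR-222-3p at place 161. For miR-222-3p the most alike were miR-98-5p (r 0.76), miR-128-3p (r 0.75), let-7e-5p (r 0.71), let-7a-5p (r 0.68) and let-7d-5p (r 0.67). Of these, 4 are members of the let-7 family, to which miR-98 belongs, and they have sequence in common.

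Other miRNAs tied to the cell cycle were read beside the arms. Of 20 miRNAs that brake the cell cycle through cyclins, E2F or MYC, 15 were tested and 0 passed in either direction in any comparison. Their median log2 fold change was -0.14 in high glucose against normal glucose, beside -0.04 for all tested miRNAs. It was 0.33 in high glucose against mannitol, beside -0.04, and -0.25 in mannitol against normal glucose, beside 0.01. The same mannitol libraries enter both comparisons with mannitol, and the distance of these medians from those of all tested miRNAs was not tested. In the same order, 7, 11 and 3 of the 15 were higher in the first group. At an unadjusted edgeR p under 0.05 stood 0, 1 and 0 of these miRNAs. Most abundant among these were let-7c-5p, at 16361 ± 3327 CPM in high glucose, 22224 ± 5142 CPM under mannitol and 21353 ± 4032 CPM at normal glucose, and let-7i-5p, at 21044 ± 3773, 18135 ± 10460 and 18687 ± 2707 CPM in the same order (SD, n = 3 each).

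Cells of vessel walls and blood also carry miR-221 and miR-222, so their markers were read beside the arms. The 2 endothelial identifiers, both arms of miR-126a, summed to 276.5 to 678 CPM in high glucose, 308 to 344 CPM under mannitol and 229 to 825 CPM at normal glucose, and 0 of 2 passed in any comparison. Their mean was lower with mannitol, as was that of miR-221-5p, but the groups overlapped. The 9 blood, immune and liver identifiers summed to 16480 to 29940 CPM in high glucose, 19134 to 44102 CPM under mannitol and 21296 to 38946 CPM at normal glucose, with 8 listed above 0 in any library, miR-142a-3p at 0 in all, and 0 of 7 tested past the threshold. Most of this sum was miR-122-5p, a liver miRNA, with a mean of 15937 CPM over all libraries, and miR-486a-5p, an erythroid miRNA, with 5879 CPM. The 6 mesenchymal identifiers were led by miR-143-3p and miR-199a-3p. They summed to 1817 to 2484 CPM in high glucose, 1620 to 2474 CPM under mannitol and 1405 to 3779 CPM at normal glucose. The counts of miR-199a-3p and miR-199b-3p are identical, and this sum includes both. The 3 kidney tubule identifiers, led by miR-192-5p and miR-194-5p, summed to 3323 to 5008 CPM in high glucose, 2348 to 3211 CPM under mannitol and 2286 to 3483 CPM at normal glucose. No member of these lists passed in edgeR, and the part of such cells or of serum in the levels of miR-221 and miR-222 was not tested.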

How the data were processed

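Small RNA libraries of vesicles were made by adapter ligation and gel size selection, per the labels' protocols. The submitters' processing notes name bcl2fastq, BWA and build mm10, with no settings. Per the file headers, the authors deposited total counts per miRNA, used as deposited. The deposited normalized values are RPM, the count divided by 1 constant per library, of which the miRNA counts are 3.43% to 9.71%; what it counts is not stated.

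Groups came from the treatment label. Counts of 9 pairs of libraries of the same group gave a chi-square per degree of freedom of 88.1 to 765, far above sampling noise, so all 9 were kept as separate libraries. Levels are CPM of all miRNA counts. edgeR 4.0.16 in R 4.3.3 (TMM, expression filter, robust quasi-likelihood test, Benjamini-Hochberg over 361 miRNAs, threshold 0.05) was fitted to all 9 libraries after a test on simulated data; SE and intervals are from that fit. The filter kept 361 of the 479 with any counts, all 4 arms among them. Likeness used log2 CPM after TMM with a prior count of 1. Single values per library were compared by exact permutation tests in scipy 1.17.1. Alternatives were DESeq2 1.42.0, limma-voom (limma 3.58.1), other scalings, no filter, only the libraries compared, a replicate block and leaving out each library. Named miRNAs were the 4 arms, the 5 most like each guide, the 2 neighbours in abundance on each side, and the 2 most abundant members of each list reported; 1 list is not reported here; others are said to be named later. Members and lists were chosen with earlier results of these data known.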

Additional observations from a re-analysis of the deposited data

How the results depend on the processing

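None of the 4 arms passed under any of 18 alternatives per comparison, and miR-221-5p kept its sign in both comparisons with mannitol, at 0.58 to 1.31 for high glucose against mannitol (smallest adjusted p = 0.228 by the fits across all miRNAs) and -1.22 to -0.51 for mannitol against normal glucose (smallest adjusted p = 0.534). The number of miRNAs called by edgeR with no expression filter was 2 in high glucose against normal glucose, 3 in high glucose against mannitol and 1 in mannitol against normal glucose, and DESeq2 called 1 in high glucose against mannitol; none was an arm of miR-221 or miR-222. The log2 fold change of miR-221-3p in high glucose against normal glucose also kept its sign, at 0.019 to 0.35. The other 9 changed sign under at least 1 alternative; except where a value shows it, the cause was not tested. Scaling to the library constant moved the median of all tested miRNAs to -0.12, -0.59 and 0.50 in the 3 comparisons. Not corrected for these shifts, the fold changes it gave were -0.045 for miR-222-5p in high glucose against normal glucose, -0.27, -0.43 and -0.50 for miR-221-3p, miR-222-5p and miR-222-3p in high glucose against mannitol, and 0.42, 0.38 and 0.49 for the same arms in mannitol against normal glucose; the 3 values against mannitol lie above the median of that comparison and the last 3 below theirs. In high glucose against normal glucose, miR-221-5p was -0.032 with RLE size factors, -0.12 with library totals only, -0.022 with DESeq2 and -0.0038 with only the libraries compared. There miR-222-5p was -0.014 with RLE, -0.097 with library totals, -0.016 without a filter, -0.011 with DESeq2 and -0.018 with only the libraries compared, and miR-222-3p was 0.031 with limma-voom and 0.020 with listed zeros set to 9 reads. In high glucose against mannitol, miR-222-3p was -0.0016 with RLE, -0.14 with library totals, -0.00097 with DESeq2 and -0.0031 with zeros at 9 reads. In mannitol against normal glucose, miR-221-3p was 0.015 with only the libraries compared, and miR-222-3p was 0.068 with library totals, 0.064 with only the libraries compared and 0.023 with zeros at 9 reads.

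With 1 library left out in turn, log2 fold changes in high glucose against normal glucose ran from -0.30 to 0.37 for miR-221-5p, -0.048 to 0.098 for miR-222-5p and -0.13 to 0.26 for miR-222-3p. In high glucose against mannitol they ran from -0.022 to 0.38 for miR-222-5p and -0.067 to 0.12 for miR-222-3p, and in mannitol against normal glucose from -0.18 to 0.10 for miR-221-3p, -0.38 to 0.027 for miR-222-5p and -0.15 to 0.23 for miR-222-3p. The next values are in the order high glucose against normal glucose, high glucose against mannitol, mannitol against normal glucose. The ratio of the summed levels ran from 0.890 to 1.11, 0.908 to 1.12 and 0.907 to 1.079. With all libraries and CPM from TMM effective library sizes, this ratio was 1.09, 1.14 and 0.958. With 1 library left out, the log2 ratio of the 3p arms differed by -0.18 to 0.29, -0.12 to 0.37 and -0.33 to 0.20 in that order. That of the miR-222 arms differed by -0.22 to 0.092, -0.13 to 0.45 and -0.48 to 0.11. In high glucose against normal glucose, the log2 ratio of the miR-221 arms differed by -0.28 to 0.14 and that of the 5p arms by -0.26 to 0.34. The ratio of the miR-221 arms kept its sign in the comparisons with mannitol, at 0.66 to 1.06 and -1.0801 to -0.69, as did that of the 5p arms, at 0.55 to 1.04 and -1.04 to -0.46, the last without normal glucose replicate 3.

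Libraries with the same replicate number had deviations correlated at -0.07 to 0.50, over 0.1 in 7 of 9 pairs. Different numbers gave -0.42 to 0.19, over 0.1 in 2 of 18 pairs, and 9 of 9 libraries correlated best with their own number. The numbers may pair the libraries, which the labels do not state, and the main fit and exact tests took them as unpaired. With the replicate block 0 miRNAs were called in each comparison. In the order used above, 19, 52 and 17 had an unadjusted p under 0.05 by edgeR, beside 10, 19 and 5 without the block. For miR-221-5p the block gave 0.98 in high glucose against mannitol (adjusted p = 0.333 by edgeR). In mannitol against normal glucose it gave -0.98 for this arm (adjusted p = 0.998 by edgeR). In high glucose against normal glucose the block gave -0.00088 for miR-221-5p, -0.017 for miR-222-5p and 0.0203 for miR-222-3p. Depth limits miR-221-5p most.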
